A study of Mus musculus with 6 samples.

Results

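The mRNA of 41 genes of homologous recombination, the Fanconi anemia pathway and the DNA damage checkpoint was followed in Normal cells, the NIH3T3 line of immortalized mouse fibroblasts, after treatment with forskolin (FSK). The genes were listed by name for their role, and a gene counted as measured where the annotation of the array pairs a probe set with its symbol alone. This held for 37 of the 41 genes among 16797 genes in all, and Rbbp8, Xrcc2, Rad54l and Rad17 are not analysed here. NF denotes the 3 arrays of FSK-treated cells and N the 3 arrays of cells without FSK. All cells were the same line, without any genetic change named in the labels, were plated in 25 mM glucose, were moved after 16 h to medium with 1 mM glucose at the start and were harvested 72 h later. NF cells received 10 μM FSK, which stimulates adenylate cyclase so that cAMP rises and PKA becomes active, at both 24 h and 48 h. For the controls the labels say only that N cells had no FSK, and the legends of the study's supplement name DMSO as the vehicle. NIH3T3 is an established line that grows without limit, which bounds it as a model of normal fibroblasts, and the Transformed derivative that carries oncogenic K-Ras is not analysed here.

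Homologous recombination mends breaks that sever both strands of DNA by copying the intact sister chromatid, and therefore works after DNA has been replicated. Nucleases trim the ends of the break, the BRCA proteins and their partners prepare the exposed strand to pair with its template, and helicases and nucleases separate the joined molecules at the end. The Fanconi anemia proteins unhook crosslinks between the strands, for which a core complex attaches ubiquitin to the pair FANCI and FANCD2. The kinases ATM and ATR sense breaks and stalled replication forks, and through CHEK2 and CHEK1 they hold back the cell cycle. In dividing fibroblasts many genes of these pathways are transcribed mainly as cells enter and pass through S phase, in part under E2F factors.

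Values are log2 expression from RMA, in which 1 unit is a factor of 2, and all changes are NF minus N by the labels of the arrays. The study's text describes genes of the cell cycle and of DNA pathways as repressed in this comparison, which is opposite to the direction that these labels give. It adds that its authors expected this, because FSK halted the cycle of Normal cells in their earlier work. The values analysed here do not settle whether the labels or that text hold the right direction. Every direction given here rests on the labels. A gene passed the test at a Benjamini-Hochberg adjusted p under 0.05 from limma, with adjustment over all probe sets that are paired with 1 gene. The labels call the arrays biological replicates, so the p-values measure the spread between 3 samples a group. N replicate 1 stood apart. Its values had an SD of 2.42, against 2.58 to 2.62 in the other arrays. Over the 4059 probe sets with a mean value from 6 to 8 it lay by a median of -0.50 from the mean of N replicates 2 and 3, and over the 11178 with a mean from 2 to 4 by 0.14. Results that rest on it are given with and without it. Of the fibroblast markers, 8 were measured, with a median level of 9.44 to 9.80 in NF and 8.85 to 9.59 in N, while the median levels of the macrophage, epithelial, endothelial and adipocyte markers lay between 2.72 and 3.73 on every array. Single markers lay higher, with Lyz2 of macrophages at 6.34, 6.06 and 6.16 in NF and 4.07, 5.98 and 5.54 in N. Krt14 of epithelia had 5.50, 5.25 and 5.54 in NF and 4.48, 5.84 and 5.84 in N. Of these 20 markers of other cell types 0 passed limma's test, with 2 at an unadjusted p under 0.05 (Lyz2 higher and Cdh1 lower), and 0 passed the methods' t-test after adjustment, with 1 before it. Of the 8 fibroblast markers 1 passed limma's test, Col3a1, with a change of 1.33 (adjusted p = 0.0157). The methods' t-test is the test with equal variances that the study's methods name for differences between data sets.

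Of the 37 genes 4 rose in NF, namely Eme1, Fanci, Brip1 and Fancd2, and 0 fell. This is 10.8% of the measured genes called higher, beside 1.83% of all genes tested. The genes were chosen with earlier results of these data known, so this share and those below describe the list and test nothing. At an unadjusted p under 0.05, 14 (37.8%) were higher, beside 8.33% of all genes, and by the methods' t-test before adjustment 15 were higher, beside 5.95%. The count called lower was 0 by limma, with 2 lower at an unadjusted p under 0.05 (Fancl and Rad52), beside 0.72% of all genes called lower and 5.49% lower before adjustment. The methods' t-test gave 1 lower before adjustment, beside 5.13% of all genes, and 0 in either direction after it. Over all genes 307 were higher and 121 lower, and after quantile normalization of the arrays 495 were higher and 365 lower, where 7 of the 37 rose and 0 fell. A wider set of genes showed no overlap between groups. In 16 of the 37 genes (43.2%) each of the 3 NF values lay above each of the 3 N values, beside 10.5% of all genes, and in 1 gene, Rad52, each NF value lay below, beside 9.7% of all genes. The 16 were Exo1, Brca1, Bard1, Brca2, Brip1, Rad51ap1, Rad54b, Fanca, Fancb, Fancg, Fancd2, Fanci, Blm, Eme1, Atm and Chek1, of which 12 did not pass the test. The median log2 change of the 37 genes was 0.31, beside -0.03 for all genes, and 28 of 37 (75.7%) had a positive change, beside 45.2% of all genes. Without N replicate 1 the median was 0.15 and 9 genes rose, beside 2.93% of all genes, the additional ones being Exo1, Brca1, Fanca, Blm and Chek1. Without NF replicate 1 the count was 0 by limma, beside 0.00595% of all genes, with 11 genes higher before adjustment, beside 950 of all 16797. With NF replicate 3 left out it was 0 as well, beside 0.0119%, with 13 higher before adjustment, beside 941 of all 16797. Without N replicate 3 it was 1 (Eme1), beside 0.625%, and without NF replicate 2 it was 2 (Brip1 and Eme1), beside 0.899%. These arrays measure RNA of whole cultures, so a larger share of cells that express a gene and more of its RNA per cell cannot be told apart.

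**Figure D1:**
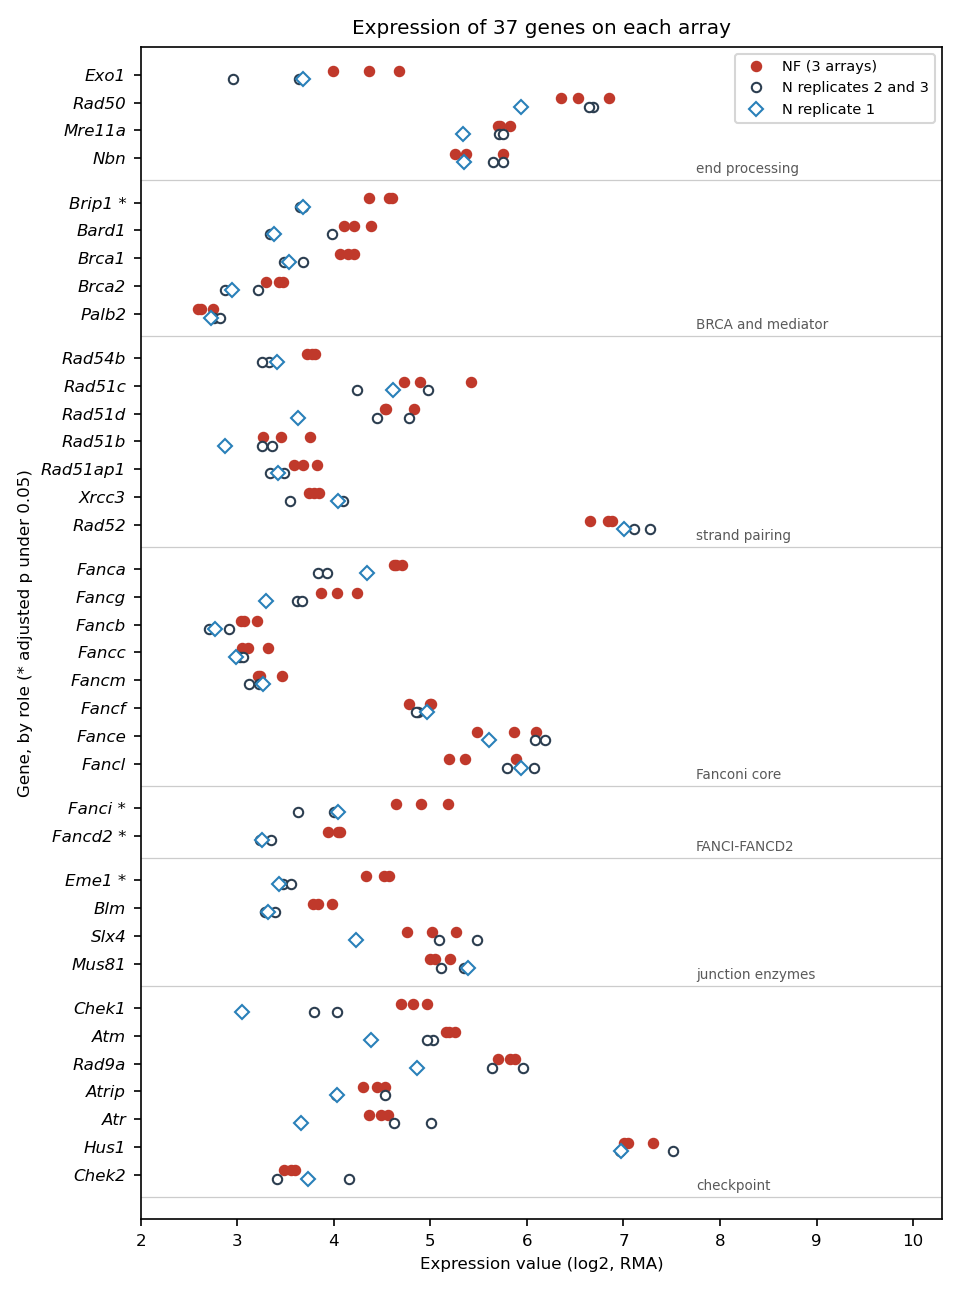
Expression value (log2, RMA, horizontal axis) of each of the 37 measured genes, grouped by role (vertical axis), with one filled point for each NF array above the open points of the N arrays, N replicate 1 drawn as a diamond. Asterisks mark Eme1, Fanci, Brip1 and Fancd2, which passed the test. In Slx4, Atr, Rad9a, Chek1, Rad51d and Atm, among others, the diamond lies apart from all other points.

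Promoter sequences are shown for genes that rose and for genes that hardly moved, to set side by side what lies around their start sites. RefSeq windows on build GRCm38.p6, which run from 250 bases before the start site to 50 after it, were found for 30 of the 37 genes, 32 windows in all. Both strands were searched for the E2F motif (TTTCCCGC or TTTGGCGC or TTTCGCGC or TTTGCCGC), for the CHR element of late cell cycle genes (TTTGAA), for the CCAAT box (CCAAT), for the cAMP response element CRE (TGACGTCA) and for its core (TGACG), which every full CRE contains. Eme1, Brip1 and Fanci passed the test, Fancf and Hus1 had the changes nearest 0 among the genes with a window, and Chek1 and Brca2 were added after the values and matches had been seen, Chek1 for its change and Brca2 because it holds both an E2F motif and a CRE. Each window is printed 5′ to 3′ on the strand of the gene, with every match to any of these motifs in capitals.
Eme1 (chr11:94653694-94653993, minus strand): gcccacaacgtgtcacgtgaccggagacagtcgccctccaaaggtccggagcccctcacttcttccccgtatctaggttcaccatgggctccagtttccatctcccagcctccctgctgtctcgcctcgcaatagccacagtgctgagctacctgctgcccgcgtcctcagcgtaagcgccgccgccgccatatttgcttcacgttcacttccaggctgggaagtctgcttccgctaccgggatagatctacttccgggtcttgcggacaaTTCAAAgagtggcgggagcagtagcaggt
Brip1 (chr11:86201144-86201443, minus strand): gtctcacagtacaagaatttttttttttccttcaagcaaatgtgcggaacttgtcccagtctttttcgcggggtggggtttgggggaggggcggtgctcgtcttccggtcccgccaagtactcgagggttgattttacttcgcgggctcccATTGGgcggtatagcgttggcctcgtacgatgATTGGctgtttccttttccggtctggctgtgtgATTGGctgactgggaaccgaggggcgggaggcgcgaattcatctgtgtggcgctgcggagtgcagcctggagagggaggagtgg
Fanci (chr7:79392088-79392387, plus strand): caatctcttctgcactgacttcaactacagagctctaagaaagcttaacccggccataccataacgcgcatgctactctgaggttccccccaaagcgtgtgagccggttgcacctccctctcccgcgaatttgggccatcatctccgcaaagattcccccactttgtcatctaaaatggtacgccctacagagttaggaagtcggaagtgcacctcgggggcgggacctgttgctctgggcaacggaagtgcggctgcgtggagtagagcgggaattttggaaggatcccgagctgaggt
Chek1 (chr9:36726609-36726908, minus strand): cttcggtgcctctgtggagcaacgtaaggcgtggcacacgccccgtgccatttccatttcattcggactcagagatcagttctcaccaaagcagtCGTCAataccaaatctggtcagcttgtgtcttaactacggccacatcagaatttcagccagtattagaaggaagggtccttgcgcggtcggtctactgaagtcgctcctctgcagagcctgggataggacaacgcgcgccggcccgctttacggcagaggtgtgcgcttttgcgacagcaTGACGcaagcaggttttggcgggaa
Brca2 (chr5:150522371-150522670, plus strand): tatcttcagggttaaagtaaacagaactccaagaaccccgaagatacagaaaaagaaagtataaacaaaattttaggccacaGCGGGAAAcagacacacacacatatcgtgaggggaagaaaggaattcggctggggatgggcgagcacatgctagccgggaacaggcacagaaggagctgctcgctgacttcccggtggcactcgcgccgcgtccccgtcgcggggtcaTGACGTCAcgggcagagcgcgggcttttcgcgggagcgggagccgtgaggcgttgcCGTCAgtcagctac
Fancf (chr7:51862218-51862517, minus strand): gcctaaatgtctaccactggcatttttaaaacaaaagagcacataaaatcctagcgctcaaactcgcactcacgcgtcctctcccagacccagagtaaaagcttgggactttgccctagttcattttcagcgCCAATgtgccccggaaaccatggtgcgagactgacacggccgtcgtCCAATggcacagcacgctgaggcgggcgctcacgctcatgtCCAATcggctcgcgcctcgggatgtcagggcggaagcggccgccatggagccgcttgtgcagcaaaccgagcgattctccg
Hus1 (chr11:9011142-9011441, minus strand): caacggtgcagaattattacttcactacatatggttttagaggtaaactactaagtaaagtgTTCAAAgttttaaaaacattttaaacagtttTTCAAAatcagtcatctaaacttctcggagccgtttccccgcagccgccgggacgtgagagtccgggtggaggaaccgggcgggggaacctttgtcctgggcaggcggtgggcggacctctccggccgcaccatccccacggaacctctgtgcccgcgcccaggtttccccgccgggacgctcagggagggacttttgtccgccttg

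The window of Eme1 holds a CHR element 22 bases after the start site and none of the other motifs. That of Brip1 holds 3 CCAAT boxes on the opposite strand, beginning 99, 67 and 34 bases before the start site, and that of Fanci holds no match. Fancf, which hardly moved, has 3 CCAAT boxes as well, at 118, 72 and 31 bases before the start, and Hus1 has 2 CHR elements at 188 and 157. Brca2 holds an E2F motif 168 bases before its start and a CRE that begins 20 bases before it, and Chek1 holds 2 cores of the CRE without a full one. Over all 32 windows of these genes, 6 (18.8%) hold the E2F motif, those of Bard1, Fancg, Chek2, Brca2 and both windows of Rad51c, beside 2.26% of the 32851 windows of all genes and 3.01% of the 15963 windows of genes on the array. The CCAAT box is in 19 windows (59.4%), beside 37.4% of all windows and 37.8% of the windows of genes on the array. In the same order, the CHR is in 4 (12.5%), beside 17.9% and 14.9%. The CRE is in 2 (6.25%), those of Brca2 and Rad51c, beside 1.79% and 2.37%, and its core is in 11 (34.4%), beside 20.8% and 25.1%. None of the genes that rose and have a window holds the E2F motif in these exact letters. A match is a description of the letters, and binding was not measured.

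Among the enzymes that open and trim broken ends, Exo1 had the largest change. Exo1, a nuclease that lengthens the single-stranded tail, had values of 4.67, 4.37 and 3.99 in NF and of 3.68, 3.64 and 2.96 in N. All NF values lay above all N values, but the arrays of each group were widely spread, and the change of 0.92 (SE 0.24) had an adjusted p = 0.117 from limma and 0.0412 without N replicate 1. Mre11a, Rad50 and Nbn, the subunits of the complex that first binds a break, had changes of 0.15, 0.15 and -0.12 with adjusted p-values of 0.749, 0.840 and 0.830. Their groups overlapped. Without N replicate 1 the changes were 0.02 for Mre11a, -0.09 for Rad50 and -0.24 for Nbn, and in Rad50 that array at 5.94 lay below the 6.69 and 6.65 of the other N arrays.

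Of the BRCA proteins and their partners, Brip1 rose. Brip1 encodes a helicase that binds BRCA1 and is itself a Fanconi gene. Its values were 4.57, 4.36 and 4.60 in NF, against 3.68, 3.65 and 3.68 in N, so that the N arrays lay within 0.03 of each other and well below every NF array. The change was 0.84 (SE 0.12), 1.79-fold (adjusted p = 0.0193 from limma). Brca1, the ubiquitin ligase that directs breaks to recombination, had values of 4.14, 4.21 and 4.07 in NF and of 3.53, 3.48 and 3.68 in N, again without overlap. Its change of 0.57 (SE 0.12) had an adjusted p = 0.0582 from limma and 0.0405 without N replicate 1. Bard1, the obligate partner of BRCA1, is measured by 3 probe sets with changes of 0.66, 0.51 and 0.20. In each of the probe sets the NF values lay above the N values, and 0 passed limma's test, the adjusted p-values being 0.156, 0.167 and 0.551. Brca2, a tumour suppressor that acts with Palb2 at breaks, had a change of 0.39 (adjusted p = 0.252), with 3.44, 3.47 and 3.30 in NF and 2.94, 2.88 and 3.21 in N. Palb2, the protein that links BRCA1 with BRCA2, had a change of -0.12 (adjusted p = 0.751). Palb2 and Brca2 lay low on the scale, with N means at the percentiles 25.5 and 37.3 of all genes tested.

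Of the 7 measured genes of strand pairing, 0 passed limma's test, with 1 higher and 1 lower at an unadjusted p under 0.05, and 0 passed the methods' t-test after adjustment, with 2 higher and 1 lower before it. Over all genes, limma gave 8.33% higher and 5.49% lower before adjustment, and the methods' t-test gave 5.95% and 5.13%. Rad54b, a motor protein that remodels DNA, had the lowest p of this group, with 3.80, 3.78 and 3.72 in NF and 3.41, 3.33 and 3.26 in N. The arrays of each group were close together and the groups apart, and the change of 0.44 (SE 0.12) had an adjusted p = 0.121 from limma. Rad51ap1, which assists strand invasion, had a change of 0.28 (adjusted p = 0.388) with no overlap. Rad51b, Rad51c and Rad51d, which act together in complexes at breaks, had changes of 0.33, 0.41 and 0.35, and in each the groups overlapped. For Rad51d, N replicate 1 at 3.63 lay below the 4.44 and 4.78 of the other N arrays, and without it the change was 0.03, while that of Rad51b was 0.19. Xrcc3, the partner of RAD51C, had a change of -0.10 (-0.03 without N replicate 1), with 3.79, 3.84 and 3.75 in NF and 4.04, 3.55 and 4.09 in N. Rad52, which anneals single strands, was the gene with every NF value below every N value, at 6.83, 6.66 and 6.88 in NF and 7.0, 7.11 and 7.28 in N. Its change was -0.34 (SE 0.13, adjusted p = 0.317 from limma) and -0.40 without N replicate 1 (adjusted p = 0.136).

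**Figure D2:**
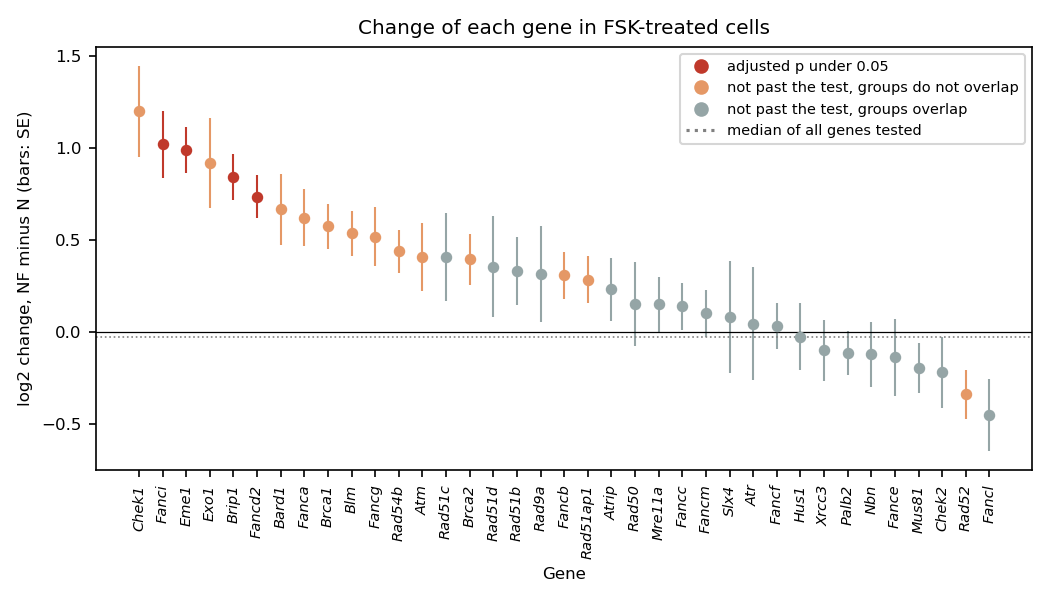
Log2 change, NF minus N (vertical axis, bars are the standard error from limma, n = 3 arrays a group), of the 37 genes from the highest to the lowest (horizontal axis), coloured by whether they passed the test and whether the arrays of the groups overlap. Changes run from 1.20 in Chek1 to -0.45 in Fancl, and the dotted line is the median of all genes tested, -0.03.

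In the Fanconi pathway the target of the core complex rose, while 0 of the 8 subunits of the core complex and its anchor passed limma's test. Of these 8, 3 were higher and 1 lower at an unadjusted p under 0.05, beside 8.33% and 5.49% of all genes. By the methods' t-test 0 passed after adjustment, with 3 higher before it, beside 5.95% of all genes. The difference between the target and the core complex was not tested. Without N replicate 1 the core subunit Fanca passed as well, with a change of 0.77 (adjusted p = 0.00897 from limma). Fanci and Fancd2 encode the pair of proteins that become ubiquitinated at a crosslink and clamp onto DNA together. Fanci had values of 4.64, 4.90 and 5.19 in NF and of 4.05, 3.63 and 4.0 in N, and its change was 1.02 (SE 0.18), 2.03-fold (adjusted p = 0.0350 from limma). Fancd2 had values of 4.04, 4.07 and 3.94 in NF and of 3.26, 3.35 and 3.24 in N, and its change was 0.73 (SE 0.12), 1.66-fold (adjusted p = 0.0243). For both genes the lowest NF array exceeded the highest N array, by a wider margin than the spread within N. Fancd2 has a mean value below 3.70, the median of all probe sets, and so was not tested where dim probe sets were left out.

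Within the core complex and its DNA anchor, Fanca had the lowest p. Fanca, a scaffold subunit, had values of 4.65, 4.63 and 4.70 in NF and of 4.34, 3.84 and 3.93 in N. The NF arrays were tight and N replicate 1 was the highest N array, and the change of 0.62 (SE 0.16) had an adjusted p = 0.10 from limma and 0.00897 without that array. Fancg, a further subunit, had 4.23, 4.03 and 3.87 in NF and 3.29, 3.62 and 3.67 in N, a change of 0.52 (adjusted p = 0.180). Fancb, which helps to activate the ligase, had a change of 0.31 (adjusted p = 0.344), also with no overlap. Fancc, Fancf and Fancm, the last of them the anchor on DNA, had changes of 0.14, 0.03 and 0.10, and Fance one of -0.14, all with overlapping groups. Without N replicate 1 the change was 0.06 for Fancf and -0.32 for Fance. The sign of Fancf turned under quantile normalization and median centring. Fancl, the subunit that carries the ubiquitin ligase activity, had the lowest change of all 37 genes, -0.45 (SE 0.19, adjusted p = 0.368 from limma), with 5.36, 5.89 and 5.19 in NF and 5.94, 5.79 and 6.07 in N. NF replicate 2 lay within the range of the N arrays, and the other NF arrays below it. Fancc, Fancb and Fancm had N means of 3.02, 2.80 and 3.21, below the median of all probe sets. The same held for 3 of the genes that rose, Eme1 (3.48), Brip1 (3.67) and Fancd2 (3.28), while Fanci had 3.89. It also held for Chek1 (3.63), Brca1 (3.56), Blm (3.33) and Exo1 (3.43), among others.

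Among the enzymes that resolve joined molecules, Eme1 rose and had the lowest p of the 37 genes. Eme1 is the partner that makes the nuclease MUS81 active. Its values were 4.57, 4.33 and 4.52 in NF, against 3.43, 3.47 and 3.55 in N, and all NF arrays lay above all N arrays by more than the spread within either group. The change was 0.99 (SE 0.13), 1.99-fold (adjusted p = 0.0124 from limma). Mus81 itself had 5.0, 5.04 and 5.20 in NF and 5.39, 5.11 and 5.34 in N, a change of -0.20 (adjusted p = 0.605), with overlap. The changes of these partners are given side by side, and their difference was not tested. Blm, the helicase that dissolves joined DNA molecules, had 3.78, 3.98 and 3.84 in NF and 3.32, 3.39 and 3.29 in N, a change of 0.54 (SE 0.12) with no overlap (adjusted p = 0.0701 from limma, and 0.0479 without N replicate 1). Slx4, the scaffold that gathers several nucleases, had a change of 0.08 with all arrays and of -0.27 without N replicate 1, which read 4.23 beside 5.09 and 5.48 in the other N arrays.

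Among the checkpoint genes, Chek1 had the largest change of all 37 genes and narrowly missed the test. Chek1 encodes the kinase that ATR activates when replication forks stall. Its values were 4.96, 4.69 and 4.82 in NF, against 3.04, 4.04 and 3.80 in N, a change of 1.20 (SE 0.25), 2.29-fold (adjusted p = 0.0502 from limma). N replicate 1 was the lowest array by a wide margin. Without it the change was smaller, 0.91, while the spread within N shrank and the adjusted p was 0.00905. Over the 14 alternatives that adjust for multiple tests, Chek1 passed in 7, and its adjusted p ran from 0.00668 to 0.367. Among the 7 is the filter that leaves out dim probe sets by their mean over all arrays. The N mean of Chek1, 3.63, lay below its limit of 3.70, so the gene was kept through its NF values. Chek2, the kinase downstream of ATM, had 3.49, 3.55 and 3.59 in NF and 3.73, 3.41 and 4.16 in N, a change of -0.22 (SE 0.19, adjusted p = 0.70 from limma). The NF arrays lay inside the range of the N arrays, and the difference between the changes of Chek1 and Chek2 was not tested.

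The sensors upstream of these kinases had smaller changes than Chek1. Atm had 5.16, 5.19 and 5.26 in NF and 4.39, 5.03 and 4.97 in N, a change of 0.41 (adjusted p = 0.401) without overlap, which was 0.20 without N replicate 1. Atr, the kinase of stalled forks, had 4.49, 4.37 and 4.56 in NF and 3.66, 4.62 and 5.01 in N. The N arrays spanned the NF arrays on both sides, and the change was 0.04 with all arrays and -0.34 without N replicate 1. Atrip, the partner through which ATR reaches DNA, had a change of 0.23 (adjusted p = 0.647), which was 0.15 without N replicate 1. Rad9a and Hus1, subunits of the ring-shaped clamp that activates ATR, had changes of 0.31 and -0.03, and that of Rad9a was near 0 without N replicate 1, which read 4.86 beside 5.63 and 5.96, while that of Hus1 was -0.12.

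The genes differed in how far they rested on N replicate 1. In 8 genes N replicate 1 lay more than 0.5 below the mean of N replicates 2 and 3, namely Rad50, Rad51d, Fance, Slx4, Atm, Atr, Chek1 and Rad9a, and among these only Chek1 passed the test without that array. In Eme1, Brip1, Fancd2, Brca1 and Blm it lay at most 0.0792 from that mean, and their changes without it were 0.96, 0.85, 0.72, 0.56 and 0.53. The mean deviation of the 37 genes from each gene's own mean was 0.18, 0.12 and 0.15 in the NF arrays and -0.29, -0.14 and -0.01 in N replicates 1, 2 and 3. The NF arrays were close to each other, and the N arrays differed among themselves by more than the NF arrays did.

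**Figure D3:**
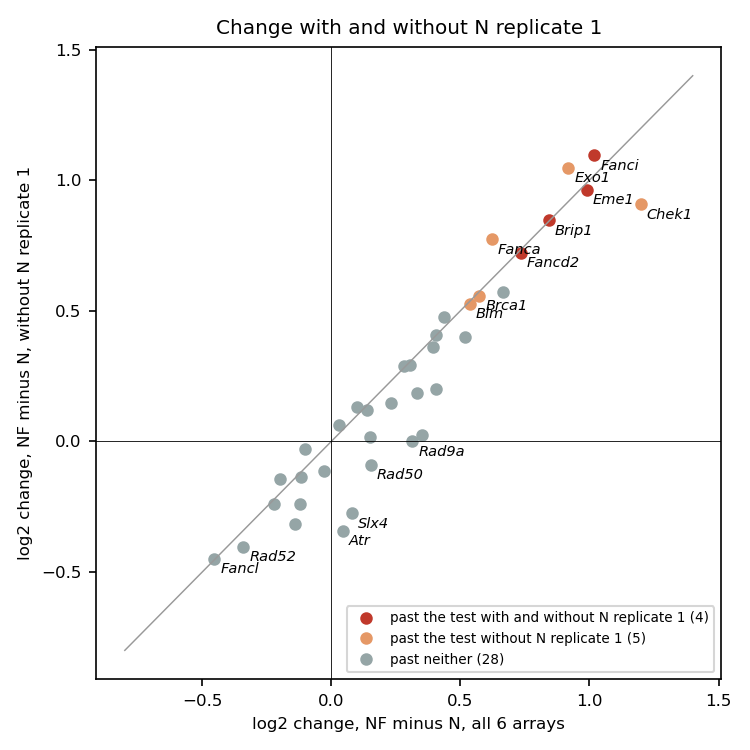
Log2 change, NF minus N, of the 37 genes with all 6 arrays (horizontal axis) and without N replicate 1 (vertical axis), one point a gene, with the line of equal change and colours for the test. Eme1, Brip1, Fancd2 and Fanci lie on or near the line, and Slx4, Atr and Rad50 lie below it with a sign that turns.

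Further genes of recombination, the Fanconi pathway and the checkpoint were also higher in NF. Of 51 measured genes from a list of 58, 5 rose and 0 fell (limma, with 22 higher and 0 lower at an unadjusted p under 0.05, and 17 higher and 0 lower by the methods' t-test before adjustment and 0 in either direction after it), and their median change was 0.34, or 0.26 without N replicate 1. Those that rose were Wee1, the kinase that keeps CDK1 inactive, at 1.39 (adjusted p = 0.0139), Rfc5, a subunit of the clamp loader, at 1.18 (0.0387), Topbp1, the activator of ATR, at 1.17 (0.0360), Spidr, a scaffold of recombination, at 1.06 (0.0451), and Rpa2, a subunit of the protein that coats single-stranded DNA, at 1.00 (0.0298), each adjusted p from limma. Without NF replicate 1 or NF replicate 3 the count that rose among the 51 was 0 by limma, with 16 higher before adjustment in each case, and without N replicate 1 it was 11. Without N replicates 2 or 3 or NF replicate 2 it was 2 to 3. In 25 of the 51 every NF value lay above every N value, beside 10.5% of all genes, and in 1 every NF value lay below, beside 9.7%. Repair pathways that do not use a sister chromatid were counted in the same way. Of 43 measured genes of end joining, mismatch, base excision and nucleotide excision repair, 2 rose and 0 fell (limma, with 7 higher and 1 lower at an unadjusted p under 0.05, and 5 higher and 2 lower by the methods' t-test before adjustment and 0 in either direction after it), with a median change of 0.12, which was -0.01 without N replicate 1, where 20 of the 43 were positive. The genes that rose were Polm, a polymerase of end joining, at 1.84 (adjusted p = 0.00939), and Msh6, a mismatch sensor, at 0.90 (0.0350). In 9 of the 43 every NF value lay above every N value, beside 10.5% of all genes, and in 3 every NF value lay below, beside 9.7%. Of all genes tested, limma called 1.83% higher and 0.72% lower. Before adjustment limma gave 8.33% higher and 5.49% lower, and the methods' t-test gave 5.95% and 5.13%. Without NF replicate 1 or NF replicate 3, 950 and 941 of all 16797 genes were higher by limma before adjustment. These lists too were chosen with earlier results of these data known. The difference between these lists and the 37 genes was not tested.

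By the labels of the arrays, genes of proliferation were higher in NF alongside these changes. The 21 measured genes were markers of S phase and mitosis and factors of the cell cycle, all measured E2F genes among them. Of these 21, 11 rose and 0 fell by limma, beside 1.83% of all genes called higher. At an unadjusted p under 0.05, 17 were higher and 0 lower, beside 8.33% and 5.49% of all genes. By the methods' t-test 14 were higher before adjustment, beside 5.95% of all genes, and 0 after it. The median change was 1.02, or 0.84 without N replicate 1. Without NF replicate 1 or NF replicate 3 the count was 0 by limma, with 16 higher before adjustment in each case, beside 950 and 941 of all 16797 genes. Ccna2, the cyclin of S and G2 phases, rose by 1.48 (adjusted p = 0.00716), Mcm5, a subunit of the replicative helicase, by 1.37 (0.0185), and Mki67, a marker of cycling cells, by 1.61 (0.0188), each adjusted p from limma. E2f1, an activating factor of S phase genes, rose by 0.94 (adjusted p = 0.0276), with 6.41, 6.76 and 6.72 in NF and 5.50, 5.88 and 5.70 in N, and the other 6 measured E2F genes did not pass. Among those 6, E2f7 had a larger change than E2f1, 1.35 (adjusted p = 0.0537 from limma, and 0.0213 without N replicate 1). The mean deviation of the proliferation genes was 0.55, 0.46 and 0.53 in the NF arrays and -0.83, -0.32 and -0.38 in N replicates 1, 2 and 3. The part of these genes in the changes of the 37 was not tested.

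**Figure D4:**
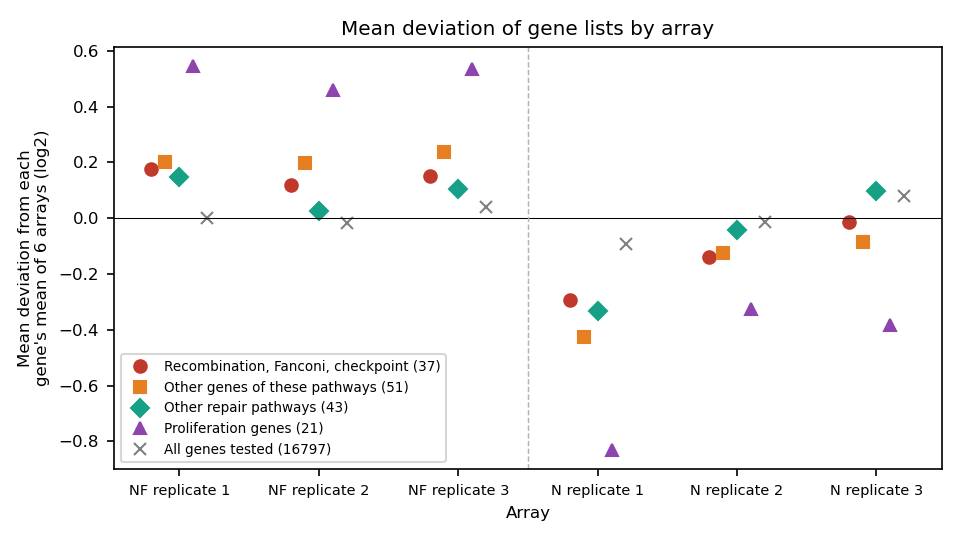
Mean deviation, in log2 units (vertical axis), of the genes of 5 lists from their own averages on the NF arrays and then the N arrays (horizontal axis), one point a list and array, with the number of genes in the legend. The 37 genes lie between 0.12 and 0.18 in NF and between -0.29 and -0.01 in N. The proliferation genes lie between 0.46 and 0.55 in NF and between -0.83 and -0.32 in N. N replicate 1 is the lowest array for each list.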

How the data were processed

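RNA of NIH3T3 cells had been hybridised to 6 Affymetrix gene arrays, 3 NF and 3 N. The deposited values are on the log2 scale and were made by the authors with RMA in the R package oligo, a method of background correction, quantile normalization and probe summary. Its version, the annotation release and the arrays normalized together are not given in the sources used here. Of 22035 probe sets, the 18197 that the platform annotation pairs with 1 symbol were tested, standing for 16797 genes, and 0 columns lacked a sample. Renamed symbols were matched through RefSeq. NF was compared with N by limma 3.58.1 in R 4.3.3 (lmFit, eBayes), with Benjamini-Hochberg adjustment over all probe sets tested and a threshold of 0.05, and for genes with several probe sets the one of minimum p was kept, following the study's methods.

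The genes and lists were chosen with earlier results of these data known. Full values were given for genes past the test, the 3 highest and 3 lowest changes and the lowest p of each role, and for other lists the genes past the test. The choice among the proliferation genes named was made after their values were seen. Alternatives were a replicate block, quantile normalization, median centring, leaving out dim probe sets (mean below 3.70), the brightest probe set, trend and robust options, array weights, the methods' t-test and leaving out each array. The fit was tested on simulated data. Motifs were searched with Python 3.11.15.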

Additional observations from a re-analysis of the deposited data

How the results depend on the processing

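Of the 4 genes that rose, Eme1 passed in 10 of 14 alternatives that adjust for multiple tests, Brip1 in 9 of 14, Fanci in 7 of 14 and Fancd2 in 7 of 13, and in all of these the direction was kept. For these 4 genes, each with 1 probe set, the brightest probe set repeats the main fit, so that its pass adds nothing. The filter for dim probe sets used the mean over all arrays. Eme1 and Brip1 had N means of 3.48 and 3.67, below its limit of 3.70, and were kept through their NF values. Arrays with the same replicate number did not deviate together (r of -0.0748, -0.0780 and -0.0736), and with the replicate number as a replicate block 0 of the 37 genes rose, 0 of the 51 further pathway genes and 1 of the 43 genes of other repair pathways, beside 0.375% of all genes, with 80 instead of 428 calls. Quantile normalization of all arrays gave 7, 8 and 3 genes higher in these lists, beside 2.95% of all genes, and 860 calls in all. Array weights, which give N replicate 1 a weight of 0.21, gave 10, 15 and 4, beside 4.02% of all genes, with a median change of 0.22 in the 37 genes. The methods' t-test gave 15, 17 and 5 higher and 1, 0 and 2 lower before adjustment, and 0 in every list after it. Leaving out single arrays gave 0 to 9, 0 to 11 and 0 to 2 genes higher, and a median change of 0.15 to 0.38 in the 37 genes. The highest counts came without N replicate 1, where 1 gene of the other repair pathways fell (Ercc6, 0 to 1 over single arrays). Without NF replicate 1 or NF replicate 3 none of the 4 passed. Without NF replicate 2, Fanci and Fancd2 did not pass, without N replicate 2 Fanci did not, and without N replicate 3 only Eme1 did. The causes were not tested. The small number of arrays limits the precision throughout.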

Other observations

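Outside the 37 genes, the profiles most like their mean deviation over the 6 arrays were those of Ext1 (Pearson r = 0.998, log2 change 0.52), Opa3 (0.997, 0.56) and Mdc1 (0.995, 1.24). These correlations describe 6 arrays that fall into 2 groups and were the highest of all genes tested, so they carry no test. Mdc1, a mediator of the response to broken DNA, is one of the 58 further pathway genes and did not pass the test.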
